A study of Mus musculus with 16 samples.

Results

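The genes described here are 31 lysosomal genes measured in the hippocampus of WT and 3xTg-AD mice, taken by name from the 55335 genes of the count table. They encode 7 cysteine cathepsins, 3 other peptidases, 6 glycosidases, 6 hydrolases of sphingolipids, lipids and sulfate esters, 3 activators and precursors, 5 membrane proteins including a channel, and the transcription factor Tfeb. All 31 were among the 16475 genes that passed the filter on low counts, and the fewest reads any of them had in any mouse were the 54 reads of Tfeb.

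Whole hippocampi came from 16 female mice aged 10 months at dissection, in 4 groups of 4 mice, and all mice carried a brain cannula with an osmotic pump for 28 days of intracerebroventricular infusion. WT mice were C57BL/6J x 129S1, and 3xTg mice came from the 3xTg-AD line, which carries mutant human APP and tau transgenes under a Thy1 promoter, active mainly in neurons. These are separate lines, so genotype and line background cannot be told apart in any difference between 3xTg and WT mice. Pumps held vehicle, 0.8% DMSO in artificial cerebrospinal fluid (WT-D and 3xTg-D), or the stearoyl-CoA desaturase (SCD) inhibitor CAY10566 at 80 µM with the same DMSO (WT-S and 3xTg-S). The comparisons ask whether levels differed between genotypes, whether the inhibitor moved them, and whether its effect differed between genotypes.

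Lysosomes are acidic organelles in which hydrolases digest proteins, glycans, glycolipids and lipids that arrive by endocytosis, phagocytosis and autophagy. Soluble hydrolases are sorted from the Golgi, membrane glycoproteins line and protect the limiting membrane, and transcription factors of the MiT/TFE family, TFEB among them, raise expression of many lysosomal genes together. In brain, lysosomal genes are expressed by neurons and glia, several cysteine cathepsins are known to be most abundant in microglia, and inherited loss of many of these enzymes causes neurodegenerative storage disease.

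The start regions of 6 of these genes are shown. They are the 3 genes that passed the study's unadjusted threshold between genotypes under vehicle, and the proteases Ctsd, Ctss and Ctsc. With all mice, Glb1, Scarb2 and Ctsa did not pass under vehicle after adjustment over all genes tested. Ctsd, Ctss and Ctsc were highest in the mice with the highest microglial markers. Windows of 300 bases, 250 before and 50 after the transcription start, were taken from RefSeq on GRCm38.p6 for 28 of the 31 genes. The motif CACGTG, read on both strands, is the core of the element bound by TFEB. It lay in 10 of the 33 windows of these genes and in 7.15% of the 32851 windows of all genes. Counted by gene, it lay in 1 window in each of 10 of the 28 genes (35.7%). These 10 were Arsa, Cln3, Ctsa, Ctsd, Ctsf, Ctsl, Gaa, Glb1, Lamp1 and Mcoln1. The longer form TCACGTGA, which contains it, lay in those of Cln3, Ctsa, Ctsd and Mcoln1 and in 0.974% of all windows. Capitals below mark CACGTG, extended to TCACGTGA where that form is present.
Glb1, chr9:114400828-114401127, plus strand: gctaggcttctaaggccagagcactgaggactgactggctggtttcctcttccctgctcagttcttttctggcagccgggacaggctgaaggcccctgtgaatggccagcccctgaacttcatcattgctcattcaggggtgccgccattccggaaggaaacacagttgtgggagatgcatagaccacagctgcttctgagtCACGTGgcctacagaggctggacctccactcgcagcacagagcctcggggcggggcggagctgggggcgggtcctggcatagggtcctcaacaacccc
Scarb2, chr5:92505608-92505907, minus strand: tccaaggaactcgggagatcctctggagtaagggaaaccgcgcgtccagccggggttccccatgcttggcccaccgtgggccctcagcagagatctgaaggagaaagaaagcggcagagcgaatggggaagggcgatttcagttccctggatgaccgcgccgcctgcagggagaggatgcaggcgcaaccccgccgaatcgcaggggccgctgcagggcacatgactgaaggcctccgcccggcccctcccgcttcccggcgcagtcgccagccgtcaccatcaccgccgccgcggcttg
Ctsa, first window, chr2:164832622-164832921, plus strand: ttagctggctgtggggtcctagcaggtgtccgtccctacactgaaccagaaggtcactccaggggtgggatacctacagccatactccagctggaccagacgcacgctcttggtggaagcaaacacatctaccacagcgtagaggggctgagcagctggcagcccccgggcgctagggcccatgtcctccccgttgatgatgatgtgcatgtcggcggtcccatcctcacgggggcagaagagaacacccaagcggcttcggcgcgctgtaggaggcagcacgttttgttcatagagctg
Ctsa, second window, chr2:164833523-164833822, plus strand: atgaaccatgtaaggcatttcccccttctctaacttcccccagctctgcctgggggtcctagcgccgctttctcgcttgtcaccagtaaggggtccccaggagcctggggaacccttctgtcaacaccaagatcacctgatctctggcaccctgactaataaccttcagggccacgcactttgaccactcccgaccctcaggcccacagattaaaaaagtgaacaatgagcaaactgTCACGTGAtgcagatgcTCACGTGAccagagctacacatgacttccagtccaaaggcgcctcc
Ctsd, chr7:142387778-142388077, minus strand: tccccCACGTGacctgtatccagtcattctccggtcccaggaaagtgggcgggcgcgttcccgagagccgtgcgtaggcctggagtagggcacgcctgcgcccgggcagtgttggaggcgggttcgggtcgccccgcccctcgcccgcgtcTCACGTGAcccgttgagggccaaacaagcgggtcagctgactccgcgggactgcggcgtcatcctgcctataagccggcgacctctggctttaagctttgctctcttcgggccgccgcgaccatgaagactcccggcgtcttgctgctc

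In Glb1 the motif began 48 bases before the start. Ctsa had 2 annotated starts, and the TCACGTGA copies of its second window began 13 bases before and 4 bases after that start. The Scarb2 window held none of the motifs searched. The motif GAGGAAGT, the core of the site for the myeloid factor PU.1, lay in 3 of the 33 windows of these genes and in 3.20% of all windows. Counted by gene, these were Ctsc, Ctss and Gusb, 10.7% of the genes matched. Its complement is in capitals in the following windows of cathepsin S and cathepsin C.
Ctss, chr3:95526536-95526835, plus strand: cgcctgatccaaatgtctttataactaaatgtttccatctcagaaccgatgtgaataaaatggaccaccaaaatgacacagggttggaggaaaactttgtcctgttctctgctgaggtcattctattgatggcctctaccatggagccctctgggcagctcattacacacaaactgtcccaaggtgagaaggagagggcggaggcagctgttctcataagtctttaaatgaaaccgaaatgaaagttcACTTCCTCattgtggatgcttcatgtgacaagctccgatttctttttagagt
Ctsc, chr7:88277835-88278134, plus strand: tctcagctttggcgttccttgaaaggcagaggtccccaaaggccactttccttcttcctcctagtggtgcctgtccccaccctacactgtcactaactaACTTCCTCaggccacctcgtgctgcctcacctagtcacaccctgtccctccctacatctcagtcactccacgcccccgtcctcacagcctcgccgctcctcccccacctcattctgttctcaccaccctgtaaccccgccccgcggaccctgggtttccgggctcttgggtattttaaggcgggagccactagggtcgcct

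Levels are given as CPM, reads scaled to a common library size. Per kilobase of exon, the order of mean levels over the 16 mice ran from Psap, the precursor of the saposins, at 384 CPM per kb to Tfeb at 0.81 CPM per kb. Psap was followed by Lamp1, the major glycoprotein of the lysosomal membrane, at 115 CPM per kb. Then came the proteases Ctss at 82.2 and Ctsb at 71.9 CPM per kb, whose ranges over mice overlapped. The aspartic protease Ctsd (47.3 CPM per kb) and the acid alpha-glucosidase Gaa (47.1 CPM per kb) could not be told apart, since their ranges over mice were 36.4 to 68.5 and 40.6 to 53.5. At the lower end stood Galc, which degrades galactosylceramide, at 2.45 CPM per kb, and Cln3, a membrane protein mutated in a juvenile storage disease, at 1.45 CPM per kb. Exon length was that of all annotated transcripts joined, so genes expressed as a short isoform are placed too low. Psap varied least, its highest mouse 1.20 times its lowest, and Ctss varied most, at 4.24 times, followed by the aminopeptidase Ctsh (3.29), the dipeptidyl peptidase Ctsc (3.05), the carboxypeptidase Ctsz (2.31) and Grn, the precursor of the granulins (2.09).

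**Figure D1:**
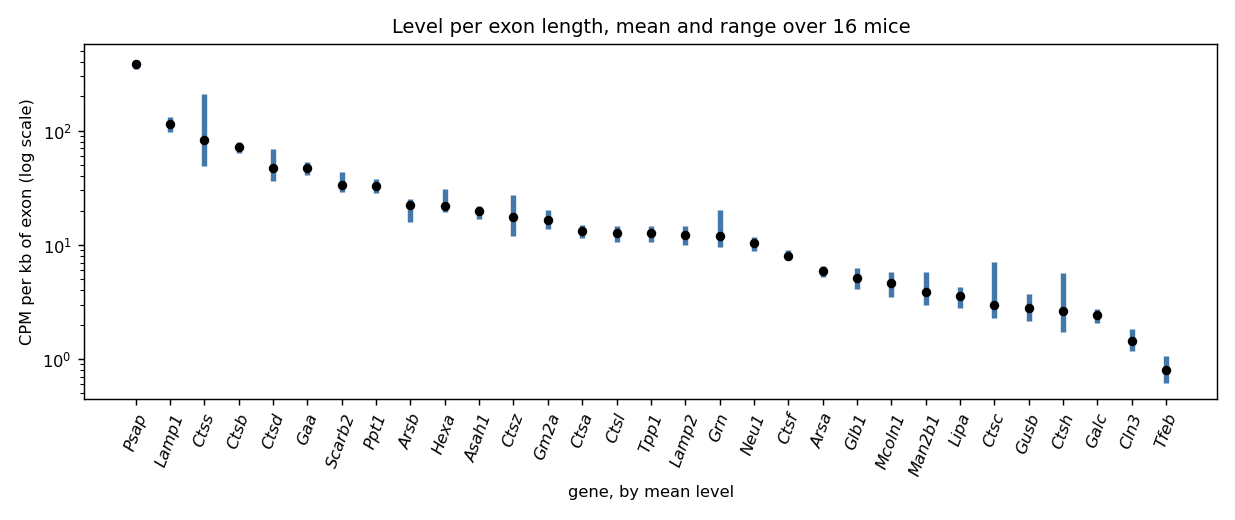
Mean level (points) and range over 16 mice (bars) of each gene in CPM per kilobase of exon, on a log axis. Psap stands at 384 CPM per kb and Tfeb at 0.81, and the longest bars are those of Ctss, Ctsh and Ctsc.

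The data show a small genotype difference in a few lysosomal genes, at a rate close to that of all genes. Averaged over infusions, 3 of 31 passed an unadjusted p of 0.01 by edgeR, against 7.93% of all genes. The median log2 fold change of the set was 0.02 under vehicle and 0 averaged over infusions. Glb1 (acid beta-galactosidase, which cleaves galactose from GM1 ganglioside and keratan sulfate) and Scarb2 (LIMP-2, which carries beta-glucocerebrosidase to the lysosome) were higher in 3xTg than in WT hippocampus. Averaged over infusions, Glb1 was higher by 25.8% and Scarb2 by 17.2%. Asah1 (acid ceramidase) and Ctsa (cathepsin A, which protects Glb1 and the sialidase Neu1 in a complex) were higher in a single comparison each at the unadjusted threshold.

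Under vehicle, 3 of the 31 genes passed an unadjusted p of 0.01, the study's threshold, all of them higher in 3xTg-D, against 4.91% of all 16475 genes tested. None of the 31 passed a Benjamini-Hochberg adjusted p of 0.05 by edgeR over all genes, where 1.85% of all genes did, and 3 passed an unadjusted p of 0.05, where 12.6% of all genes did. The median log2 fold change of the set was 0.02, beside 0 for all genes. The same 3 were the only members whose 4 3xTg-D mice all lay above the 4 WT-D mice, a pattern of 4.39% of all genes.

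Glb1 (chromosome 9 from 114401076 to 114474898) had 14.4, 12.4, 14 and 12.9 CPM in the WT-D mice, against 17.6, 14.9, 18.4 and 18.7 CPM in the 3xTg-D mice. Under CAY10566 it had 15.4, 14.5, 12.5 and 13.7 CPM in WT-S and 18.3, 15.2, 18 and 17.3 CPM in 3xTg-S. Under vehicle every 3xTg mouse was above every WT mouse, the lowest being 3xTg-D mouse 2. Under the inhibitor the genotypes overlapped, since 3xTg-S mouse 2 was below WT-S mouse 1. The log2 fold change was 0.37 under vehicle (standard error 0.09, unadjusted p = 0.00214) and 0.28 under CAY10566 (standard error 0.10, unadjusted p = 0.0162), and these did not differ by the interaction test (difference -0.08, 95% interval -0.35 to 0.20). Without WT-D mouse 1 and 3xTg-D mouse 2 the vehicle value was 0.47. For Glb1 these were the highest WT-D mouse and the lowest 3xTg-D mouse. Leaving them out had to raise the value, so that fit is no test of it. Averaged over infusions it was 0.33 (standard error 0.06), with an adjusted p of 0.0046 by edgeR. Another gene, Tmppe, overlaps 5.49% of the Glb1 exon bases on the same strand, so a part of these reads is uncertain.

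Scarb2 (chromosome 5 from 92441314 to 92506833) had 192, 196, 194 and 193 CPM in the WT-D mice, against 223, 275, 229 and 222 CPM in 3xTg-D. In the inhibitor groups it had 203, 191, 187 and 183 CPM in WT-S and 217, 241, 201 and 197 CPM in 3xTg-S. The WT-D mice were close to each other while mouse 2 of 3xTg-D stood apart above the rest of its group. The log2 fold change was 0.30 under vehicle (standard error 0.07, unadjusted p = 0.0019), 0.21 without 3xTg-D mouse 2 and WT-D mouse 1, and 0.23 averaged over infusions (standard error 0.05, adjusted p = 0.0146 by edgeR). Without those 2 mice the averaged value was 0.18 and missed an adjusted p of 0.05 (unadjusted p = 0.00283, adjusted p = 0.0617 by edgeR). The vehicle call was lost when the fit held the share of reads outside genes as a covariate (log2 fold change 0.21, unadjusted p = 0.0122). Under CAY10566 alone it was 0.15 (95% interval -0.03 to 0.33), with an overlap between 3xTg-S and WT-S.

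Ctsa (chromosome 2 from 164832873 to 164841032) had 62.5, 54.2, 63.7 and 63.2 CPM in the WT-D mice, against 70.2, 69.6, 69.8 and 68.0 CPM in 3xTg-D. Under CAY10566 it had 55.8, 58.9, 61.4 and 55.8 CPM in WT-S and 58.5, 56.8, 69.6 and 60.1 CPM in 3xTg-S. The 3xTg-D mice formed a tight high group, and of the 3xTg-S mice only mouse 3 was at that level. The log2 fold change between genotypes was 0.19 under vehicle (standard error 0.06, unadjusted p = 0.00871, adjusted p = 0.189 by edgeR) and 0.06 under the inhibitor (95% interval -0.11 to 0.24). Without any single one of the 8 mice Ctsa missed the threshold (unadjusted p between 0.011 and 0.0214), and leaving out WT-D mouse 2 gave the lowest value, 0.14. Genes on the other strand, Neurl2 and Pltp, overlap 17.4% of the Ctsa exon bases, and strand use in counting was not given in the sources used here.

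Asah1 (chromosome 8 from 41340197 to 41374773) had 70.3, 69.0, 65.0 and 61.5 CPM in the WT-D mice, against 69.5, 73.6, 70.7 and 67.2 CPM in 3xTg-D. It had 65.0, 60.8, 65.5 and 56.8 CPM in WT-S and 73.7, 70.7, 67.0 and 68.7 CPM in 3xTg-S. Under vehicle the genotypes overlapped, and under CAY10566 all 3xTg-S mice were above all WT-S mice, as in 3.22% of all genes. Averaged over infusions the log2 fold change was 0.13 (standard error 0.04, unadjusted p = 0.00885, adjusted p = 0.116 by edgeR), and the call was lost without the pair of mice named above (unadjusted p = 0.0273) and in 12 of the 16 fits that left out a single mouse.

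Averaged over infusions, 3 of the 31 genes (Glb1, Scarb2 and Asah1) passed the unadjusted threshold of 0.01, all higher in 3xTg, against 7.93% of all genes, and 6 passed 0.05, all higher, against 15.7% of all genes. Glb1 and Scarb2 also passed an adjusted p of 0.05 by edgeR, against 4.97% of all genes. Without WT-D mouse 1 and 3xTg-D mouse 2, 6 passed 0.05 by edgeR, 4 higher and 2 lower, against 14.8% of all genes. The lower ones were Ctsc (log2 fold change -0.20, unadjusted p = 0.0274) and Ctsz (-0.22, unadjusted p = 0.027). With all mice, Ctsc had -0.33 (unadjusted p = 0.0705) and Ctsz -0.21 (unadjusted p = 0.114). Between 3xTg-S and WT-S 0 members passed 0.01 by edgeR or DESeq2 (4.26% of all genes did by edgeR), and 2 passed an unadjusted p of 0.05, Glb1 higher and the GM2 activator Gm2a lower, against 10.7% of all genes. Between 3xTg-S and WT-D, which shares its WT-D mice with the vehicle comparison, Glb1 alone passed (log2 fold change 0.34, standard error 0.09, unadjusted p = 0.00327), against 5.69% of all genes. At 0.05 there were 5 (13.1% of all genes), Glb1 higher and Ctsc, Ctsz, Lamp2 and Gm2a lower. In this comparison Gaa, Scarb2 and Glb1 lay wholly above WT-D, as 5.13% of all genes did, and Ctsc wholly below, as 4.42% did. The Glb1 call was lost in 4 of 8 fits that left out a mouse, WT-D mouse 2 or 4 or 3xTg-S mouse 1 or 3 (unadjusted p up to 0.0128). Leaving out 3xTg-S mouse 2 or WT-D mouse 3 raised the count of members to 3. Over these 8 fits the count of all genes that passed ran from 664 to 1545.

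**Figure D2:**
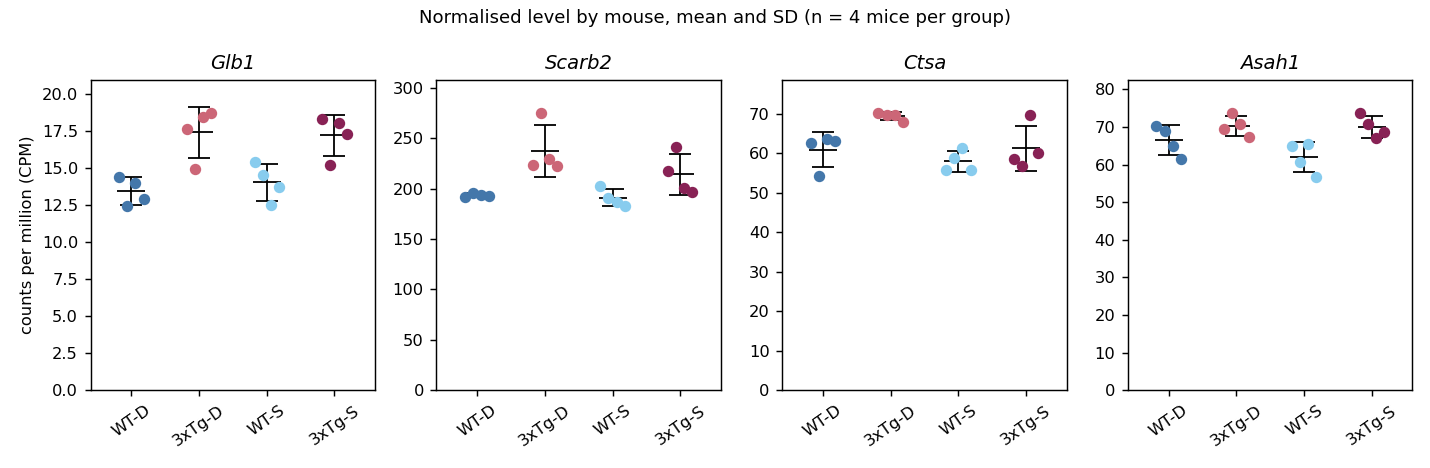
CPM of Glb1, Scarb2, Ctsa and Asah1 in each mouse (points) with the group mean and SD (black, n = 4 mice). Glb1, Scarb2 and Ctsa do not overlap between WT-D and 3xTg-D, and Asah1 does not overlap between WT-S and 3xTg-S.

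The next members by the size of their p in the averaged genotype comparison did not pass 0.01. Arsa, the arylsulfatase that degrades sulfatide, had 21.5, 19.3, 22.6 and 22.4 CPM in the WT-D mice, against 22.2, 23.4, 22.9 and 23.8 CPM in 3xTg-D. Under the inhibitor it had 21.5, 20.9, 19.5 and 20.4 CPM in WT-S and 21.4, 21.7, 24.2 and 21.9 CPM in 3xTg-S. Within each infusion the genotypes overlapped by a narrow margin. Averaged over infusions the log2 fold change was 0.11 (standard error 0.05, unadjusted p = 0.0294), and the mice of the 2 genotypes overlapped more widely. Hexa, the alpha subunit of hexosaminidase A that cleaves GM2 ganglioside, had 43.2, 43.4, 39.0 and 45.1 CPM in the WT-D mice, against 43.4, 61.1, 43.0 and 46.2 CPM in 3xTg-D. Under the inhibitor its values were 39.3, 41.0, 39.7 and 40.6 CPM in WT-S and 39.8, 46.1, 46.1 and 41.5 CPM in 3xTg-S. A single mouse, 3xTg-D mouse 2, stood far above the others, and the log2 fold change of 0.15 (unadjusted p = 0.0434) was 0.07 without it and WT-D mouse 1. Neu1, the partner of Ctsa and Glb1, ranged from 32.8 to 43.5 CPM and had a log2 fold change of 0.01 between genotypes (95% interval -0.10 to 0.12).

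Ctss, Ctsh and Ctsc were highest in the same 2 vehicle mice, WT-D mouse 1 and 3xTg-D mouse 2, chosen after their values were seen. Both were above the other 14 mice for Ctsc, Ctsd, Ctsh, Ctss, Ctsz, Lamp2, Gusb and Grn, 8 of the 31 genes, where 3.20% of all genes showed this pattern. Cathepsin S, an elastinolytic protease known for its high level in microglia, had 282 CPM in the first of these mice, 239 CPM in the second and between 66.6 and 106 CPM in the other 14. Ctsh had 25.6 and 22.7 CPM against 7.77 to 12.4 CPM. Grn had 69.9 and 52.8 CPM against 33.4 to 43.2 CPM.

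Ctsc, which activates granule serine proteases, had 40.9, 17.1, 15.5 and 19.0 CPM in the WT-D mice, against 13.9, 21.4, 16.3 and 15.2 CPM in 3xTg-D. Under the inhibitor the values were 19.3, 13.4, 16.5 and 14.5 CPM in WT-S and 14.5, 13.6, 13.9 and 13.8 CPM in 3xTg-S. The 3xTg-S mice were all below the WT-D mice. Ctsz had 39.8, 28.9, 24.7 and 23.9 CPM in the WT-D mice, against 23.9, 35.8, 24.8 and 21.5 CPM in 3xTg-D. Under the inhibitor there were 25.3, 29.2, 23.2 and 22.5 CPM in WT-S and 22.6, 24.5, 18.7 and 17.3 CPM in 3xTg-S. All groups of Ctsz overlapped. Against these, Hexa and Scarb2 were high in 3xTg-D mouse 2 and not in WT-D mouse 1, while Man2b1, the lysosomal alpha-mannosidase, was highest in WT-D mouse 1 (46.2 CPM) and had 33.3 CPM in 3xTg-D mouse 2.

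The same 2 mice had the highest microglia marker scores, the mean log2 CPM of 11 markers, at 5.19 and 5.41 against 4.06 to 4.63 in the other 14. Of the 11 markers, 8 were above the other 14 mice in both of them, among them C1qa (60.1 and 72.0 CPM, at most 35.8 elsewhere), C1qb, C1qc and Tyrobp. P2ry12, Itgam and Trem2 were not. They were also the most deeply sequenced libraries, with 23309273 and 23590149 reads on genes. In bulk tissue, more cells of a type and more RNA per cell cannot be told apart, and the part of these cells in the values above was not tested.

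**Figure D3:**
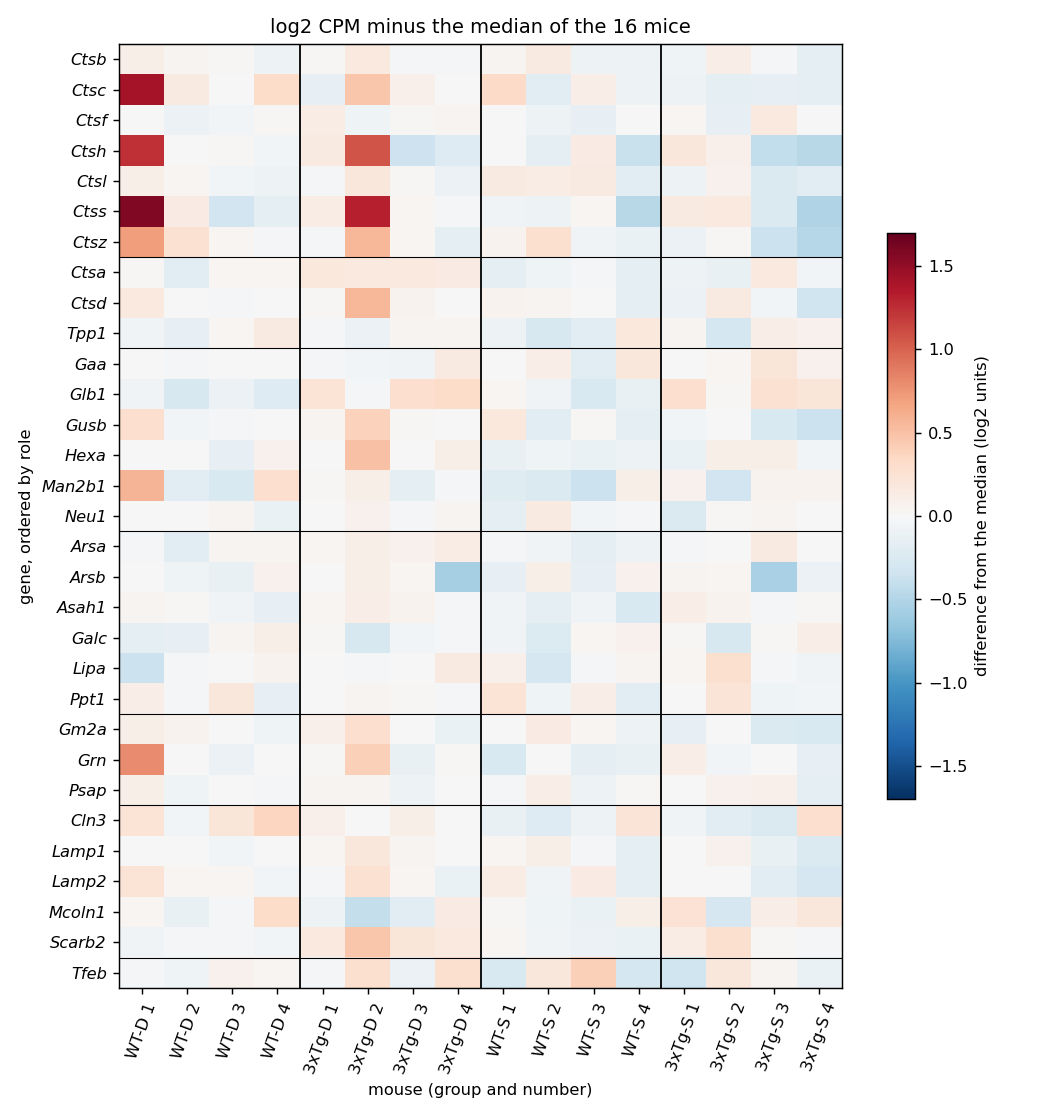
Log2 CPM of each gene in each mouse minus the gene's median over the 16 mice, with genes ordered by role and mice by group. The darkest cells are Ctss, Ctsh and Ctsc in WT-D mouse 1 and Ctss and Ctsh in 3xTg-D mouse 2, and the lowest are Arsb in 3xTg-D mouse 4 and 3xTg-S mouse 3.

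CAY10566 changed no member past the threshold. Averaged over genotypes, 0 of 31 passed an unadjusted p of 0.01 (0.880% of all genes did) and 5 passed an unadjusted p of 0.05, all lower with the inhibitor (4.68% of all genes passed in either direction), by edgeR. DESeq2 also called 0 at 0.01. These were Ctss, Ctsc, Ctsz, Gusb (beta-glucuronidase) and Ctsa. The median log2 fold change of the set was -0.06 and that of all genes 0.01, and 24 of 31 members had a negative value (77.4%, against 46.4% of all genes). Without the 2 vehicle mice the median was -0.04, again with 24 negative values, and 1 member, Ctsa, passed an unadjusted p of 0.05, where 2.71% of all genes did.

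The cysteine cathepsins had the most negative values. Ctss had a log2 fold change of -0.62 with CAY10566 (95% interval -1.17 to -0.06), and -0.08 without the pair of vehicle mice. Ctsh had -0.46 (95% interval -0.94 to 0.02) and -0.04 without them. Ctsc had -0.40 and -0.12, and Ctsz had -0.29 and -0.11. The pair were the vehicle mice with the highest values of Ctss, Ctsh, Ctsc and Ctsz. Leaving them out had to move the inhibitor values of these genes towards 0, so the shrinkage is no test of them. The median over the 7 genes moved from -0.29 to -0.04. Ctsb, Ctsf and Ctsl, the most evenly expressed of them, stood at -0.04, -0.02 and -0.03 with all mice. Ctsb ranged from 385 to 486 CPM over the 16 mice, Ctsf from 36.8 to 45.5 CPM and Ctsl, a broad endopeptidase, from 69.7 to 94.8 CPM.

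Ctsa kept its value, with a log2 fold change of -0.13 with the inhibitor (standard error 0.05, unadjusted p = 0.0192) and -0.12 without the 2 mice (unadjusted p = 0.0438). Its adjusted p was 0.999 by edgeR. In 3xTg mice alone it was -0.18 (standard error 0.07, unadjusted p = 0.0301) and in WT mice alone -0.07 (95% interval -0.22 to 0.08), and these did not differ by the interaction test (unadjusted p = 0.271).

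Within genotypes, 0 of 31 members passed 0.01 between 3xTg-S and 3xTg-D (0.904% of all genes did), and Ctsa, Gusb and Gm2a passed 0.05, all lower with the inhibitor (6.33% of all genes). Without 3xTg-D mouse 2 only Ctsa passed 0.05 (3.28% of all genes), while Gusb went from -0.30 to -0.20 (unadjusted p = 0.104) and Gm2a from -0.23 to -0.16 (unadjusted p = 0.0986). Gusb and Gm2a both had their highest value in that mouse. Gusb was the sole member with no overlap, at 12.4, 12.7, 10.7 and 9.88 CPM in 3xTg-S and 13.2, 16.9, 12.9 and 12.9 CPM in 3xTg-D, a pattern of 1.76% of all genes. The margin was narrow, 12.7 against 12.9 CPM. Between WT-S and WT-D 0 members passed 0.01 (0.188% of all genes did) and 0 passed 0.05 (2.25%). The labels do not pair mice across groups, but same-numbered mice deviated together in this comparison. A fit blocked on that number was therefore also made, and in it 0 passed 0.01 where 0.698% of all genes did. In that fit 3 passed 0.05, Ctsc, Man2b1 and Cln3, all lower with the inhibitor (log2 fold changes -0.45, -0.29 and -0.25), as did 757 of the 16475 genes in either direction. The interaction test gave 0 members at 0.01 (0.595% of all genes) and 0 at 0.05 (4.98%). In these comparisons too DESeq2 called 0 members at 0.01.

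**Figure D4:**
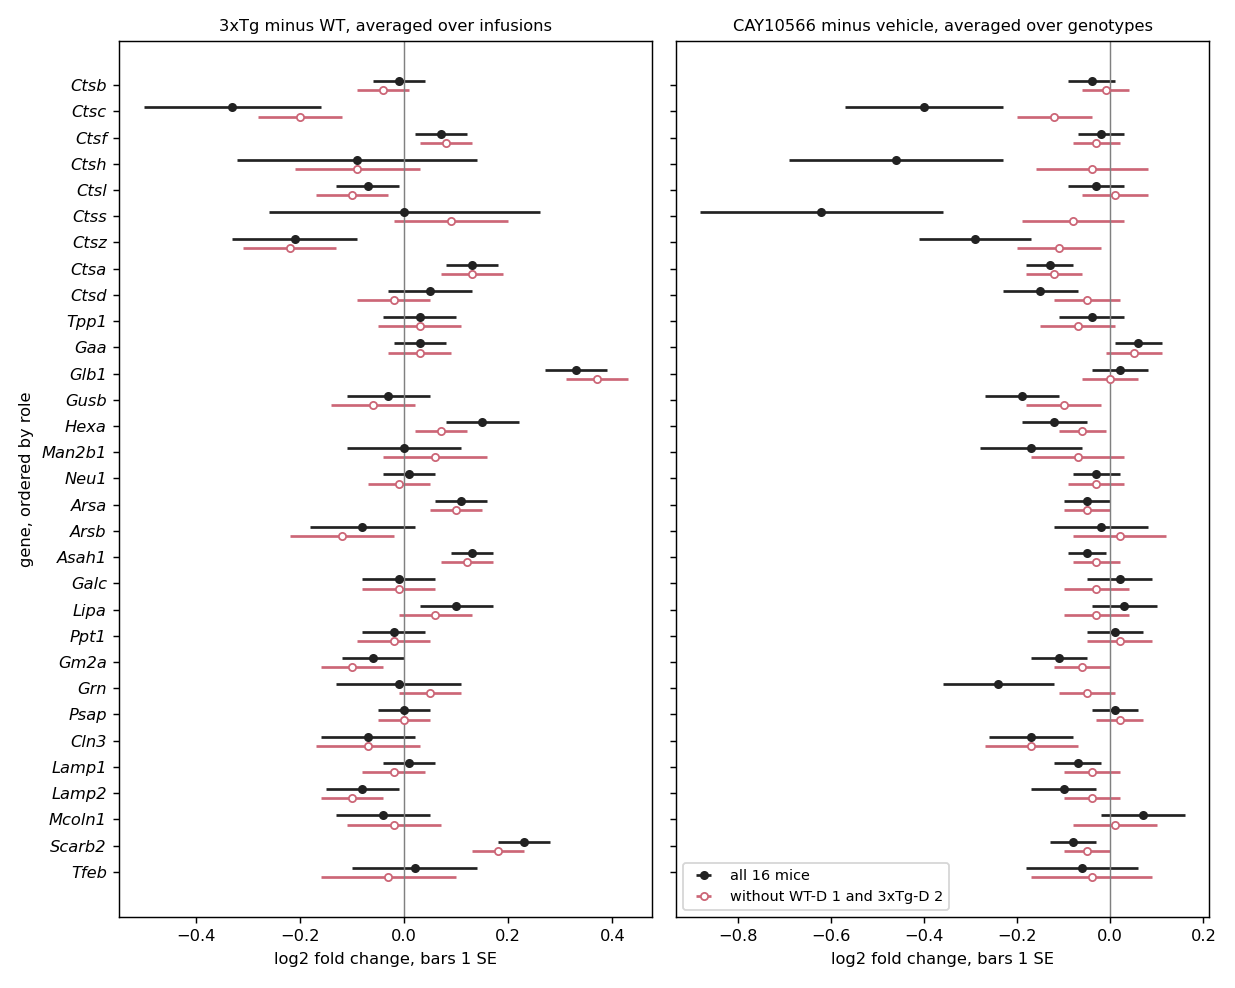
Log2 fold change of each gene with its standard error, for 3xTg minus WT (left) and CAY10566 minus vehicle (right), with all 16 mice (filled) and without WT-D mouse 1 and 3xTg-D mouse 2 (open). Glb1 and Scarb2 lie to the right of 0 for genotype in both fits, and the inhibitor values of Ctss, Ctsh and Ctsc shrink towards 0 in the second. The mice left out had vehicle and the highest values of these cathepsins, so that shrinkage follows from the choice of mice. For Glb1 they were the highest WT-D and the lowest 3xTg-D mouse, so its second value is no test of its first.

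Of the activators and precursors, Psap had group means of 1050 ± 51.5, 1050 ± 45.9, 1060 ± 61.8 and 1060 ± 79.0 CPM (SD, n = 4 mice) in the WT-D, 3xTg-D, WT-S and then 3xTg-S groups. Its 95% interval was -0.09 to 0.10 on the log2 scale both for genotype and for the inhibitor. Gm2a, which presents GM2 to hexosaminidase A, passed an unadjusted p of 0.05 as lower in 3xTg-S against each of the other groups (log2 fold changes -0.23 against 3xTg-D, -0.19 against WT-S and -0.19 against WT-D). These comparisons share the 3xTg-S mice, whose values were 61.9, 68.4, 57.6 and 56.9 CPM. The interaction for Gm2a was -0.23 (95% interval -0.48 to 0.02). Grn had a log2 fold change of -0.24 with the inhibitor (95% interval -0.48 to 0.01), and -0.05 without WT-D mouse 1 and 3xTg-D mouse 2, in which it was highest.

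Among the membrane proteins, Lamp1 had 305 ± 4.97, 323 ± 21.1, 306 ± 23.6 and 294 ± 29.7 CPM (SD, n = 4 mice) and Lamp2, which also takes part in chaperone-mediated autophagy, had 122 ± 10.4, 120 ± 13.8, 118 ± 11.7 and 108 ± 10.6 CPM, in the same order of groups. The calcium channel Mcoln1 had 36.8 ± 4.94, 32.4 ± 5.01, 34.9 ± 2.20 and 37.4 ± 5.76 CPM. None of these passed 0.05 for genotype or inhibitor averaged over the other factor. Tfeb had 4.50 ± 0.213, 4.87 ± 0.674, 4.63 ± 1.14 and 4.37 ± 0.689 CPM, and its 95% intervals on the log2 scale, -0.23 to 0.27 for genotype and -0.31 to 0.19 for the inhibitor, include changes as large as the genotype difference of Scarb2.

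The remaining hydrolases did not pass 0.05 in either averaged comparison. Tpp1, a tripeptidyl peptidase, ranged from 54.4 to 75.5 CPM over mice, Ppt1, a palmitoyl-protein thioesterase, from 104 to 138, Lipa, the acid lipase, from 18.9 to 29.3, Gaa from 194 to 256 and Galc from 31 to 40.6. Arsb, which removes sulfate from dermatan sulfate, was low in 3xTg-D mouse 4 (96.3 CPM) and 3xTg-S mouse 3 (97.2 CPM) and between 129 and 153 CPM in the others, a pair named after the values were seen. Genes on the other strand overlap 39.9% of the Arsb exon bases. In all, 14 of the 31 genes are overlapped by an exon of another gene, 7 of them over more than 10% of their exon bases, Ctsd, Arsb, Ctsl, Arsa, Ctsa, Hexa and Ctsb.

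Members did not vary alone. Over the 14 mice other than WT-D mouse 1 and 3xTg-D mouse 2, the microglia marker score followed Ctss (Pearson's r = 0.907, Spearman's rho = 0.824), Lamp1 (r = 0.816, rho = 0.806) and Ctsd (r = 0.765, rho = 0.759), each with an adjusted p of 0.00692 or less for r over 62 relations by a permutation test. The corresponding adjusted permutation p-values for rho were 0.012, 0.0122 and 0.0215. Over all 16 mice no pooled value is given, since those 2 mice stand apart. Galc, Tpp1, Mcoln1 and Gm2a passed for rho alone (rho = -0.733, -0.718, -0.676 and 0.718, adjusted permutation p at most 0.0463). Scarb2 had r = 0.632 over the 14 mice (adjusted permutation p = 0.0711, rho = 0.498) and Glb1 had r = 0.124.

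A second measure of the libraries, the share of reads outside annotated genes, ran from 7.82% to 15.1% and moved with an overlapping set. Over 16 mice, 12 members passed an adjusted permutation p of 0.05 for r, 4 positive and 8 negative. Galc (r = 0.858, rho = 0.821), Tpp1 (r = 0.821, rho = 0.879) and Mcoln1 (r = 0.790, rho = 0.812) rose with that share, while Lamp1 (r = -0.835, rho = -0.741), Ctsb (r = -0.823, rho = -0.693) and Ctsl (r = -0.805, rho = -0.832) fell with it. The adjusted permutation p-values of these 6 for r and rho were at most 0.0179. With 3xTg-S mice 2 and 4 left out, whose share was farthest from the median, r was 0.827, 0.844, 0.767, -0.751, -0.744 and -0.831 in the same order. Within the 8 WT mice and the 8 3xTg mice r kept its sign for each of the 6, for example 0.800 and 0.909 for Galc and -0.808 and -0.853 for Lamp1. Among the genes of the genotype comparison, r with this share was 0.216 for Glb1, -0.199 for Asah1, -0.0295 for Ctsa and -0.448 for Scarb2, none of which passed the adjusted permutation test. For Scarb2 it was -0.238 within the WT mice and -0.832 within the 3xTg mice. Ctsd (r = -0.759, rho = -0.817) and Gm2a (r = -0.745, rho = -0.753) also fell with this share (adjusted permutation p at most 0.00671). Lamp1, Ctsd, Gm2a, Galc, Tpp1 and Mcoln1 thus moved with the share and, over 14 mice, with the microglia score in the opposite direction. Whether these genes follow the score or the share was not tested. The part of read composition in the levels of these genes was not tested.

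**Figure D5:**
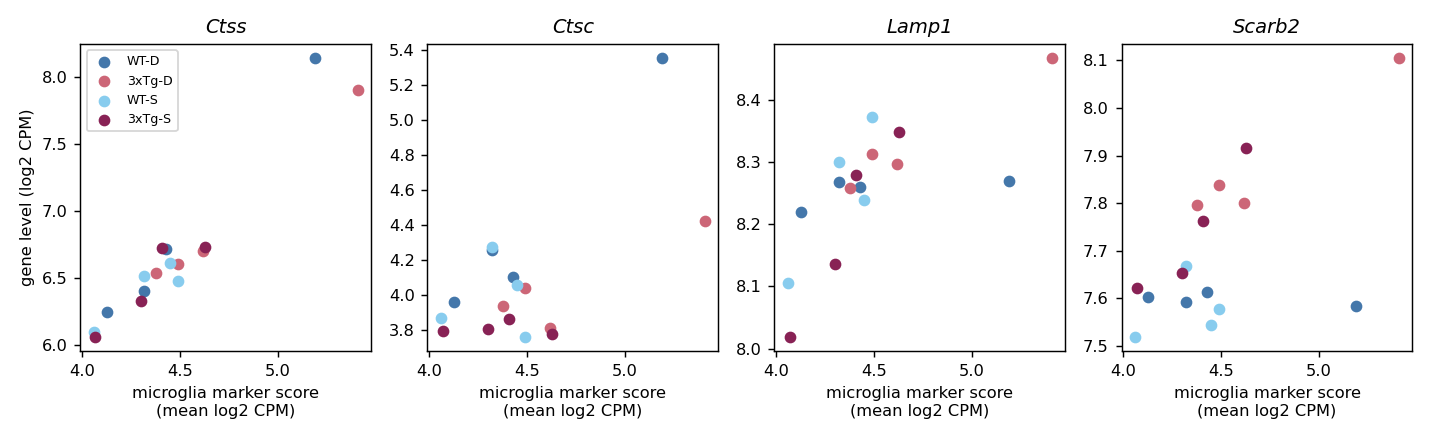
Log2 CPM of Ctss, Ctsc, Lamp1 and Scarb2 against the microglia marker score (mean log2 CPM of 11 markers) in each of 16 mice, coloured by group. WT-D mouse 1 and 3xTg-D mouse 2 lie at 5.19 and 5.41 on the horizontal axis and the other 14 mice between 4.06 and 4.63, where Ctss and Lamp1 still rise with the score.

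Other genes of the pathway showed larger genotype differences than the members did, in both directions. Of 31 other soluble hydrolases and activators tested, 1 was higher and 4 were lower in 3xTg averaged over infusions at an unadjusted p of 0.01 (7.93% of all genes passed), and 1 and 2 of these passed an adjusted p of 0.05 by edgeR (4.97% of all genes). Manba (beta-mannosidase) was higher, at 11.4 ± 1.07 against 8.19 ± 0.578 CPM (SD over mice, log2 fold change 0.47, adjusted p = 0.000375 by edgeR). Idua (alpha-iduronidase) had 4.95 ± 0.869 against 8.40 ± 1.75 CPM and fell by 0.76 on the log2 scale (adjusted p = 0.00291 by edgeR). Naaa, an amidase of N-acylethanolamines, had 30.2 ± 6.77 against 45.5 ± 9.06 CPM and fell by 0.60 (adjusted p = 0.00963 by edgeR). The lower genes also included Prcp, a carboxypeptidase, with a log2 fold change of -0.36 (adjusted p = 0.0672 by edgeR). These directions are mixed, and the median of the 31 was -0.02.

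Of 18 tested genes of MiT/TFE factors and mTORC1 at the lysosome, Lamtor3, a subunit of the Ragulator scaffold, was higher in 3xTg (28.6 ± 1.28 against 23.1 ± 0.738 CPM, log2 fold change 0.30, adjusted p = 0.00011 by edgeR) and Lamtor4 was lower at the unadjusted threshold only (log2 fold change -0.17, adjusted p = 0.0868 by edgeR). Of 4 cathepsin inhibitors, Cst7 (cystatin F) was higher in 3xTg at a low level (0.872 ± 0.669 against 0.171 ± 0.228 CPM, adjusted p = 0.0127 by edgeR). Of 15 autophagy genes, Uvrag was higher (log2 fold change 0.18, adjusted p = 0.0378 by edgeR). None of 25 other membrane proteins, 18 subunits of the proton pump (V-ATPase) and 13 sorting genes passed 0.01 averaged over infusions. In single pairs of groups, the amino acid transporter Slc36a1 was lower in 3xTg-D than among WT-D mice (42.9 ± 2.21 against 48.5 ± 1.56 CPM, adjusted p = 0.186 by edgeR), and the sorting adaptor Gga3 was higher in 3xTg-S than among WT-D mice (log2 fold change 0.23, unadjusted p = 0.00859), both at the unadjusted threshold only.

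With CAY10566 averaged over genotypes, 4 of the 31 other soluble hydrolases passed an unadjusted p of 0.01, all lower, against 0.880% of all genes, and none passed an adjusted p of 0.05. Among them were Naglu, Man2b2 and Aga, named here after the results were seen, with log2 fold changes of -0.37, -0.20 and -0.30. None of the 31 passed an unadjusted p of 0.01 without the 2 vehicle mice, where 0.583% of all genes did. Those mice were chosen after lysosomal values were seen, so this loss is no test of the inhibitor values. Of the pump subunits, Atp6v0c was higher in 3xTg-S than in 3xTg-D at the unadjusted threshold (44.9 ± 21.8 against 15.6 ± 1.19 CPM, adjusted p = 0.722 by edgeR), with groups that overlapped. No gene of the sorting, autophagy, inhibitor, membrane protein or mTORC1 lists passed 0.01 for the averaged inhibitor effect.

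Tissue markers place these values in hippocampus. The score of 6 hippocampal subfield markers lay between 6.09 and 6.63 and that of 7 neuronal markers between 8.85 and 9.15 log2 CPM in every mouse. The subfield score averaged 6.15 in 3xTg-D and 6.48 in the WT-D mice ( exact permutation p = 0.0286, the smallest that 4 against 4 mice allow, adjusted p = 0.457 over 48 tests). Choroid plexus markers were high in WT-D mouse 4 (4.75) and WT-S mouse 1 (3.78) and between -0.24 and 1.92 elsewhere. In WT-D mouse 4 Mcoln1 (43.8 CPM) and Cln3 (10.5 CPM) had their highest values, but in WT-S mouse 1 they had 35.5 and 7.42 CPM. Ependymal markers averaged 1.04 in 3xTg-S, below 1.74 in 3xTg-D and 1.77 in WT-S (exact permutation p = 0.0286 each, adjusted p = 0.457). Oligodendrocyte markers averaged 8.18 in 3xTg-S and 8.54 in 3xTg-D (exact permutation p = 0.0571). The astrocyte score was highest in 3xTg-D mouse 2 (8.82, at most 8.40 elsewhere). The microglia score averaged 4.72 in 3xTg-D and 4.52 in the WT-D mice (exact permutation p = 0.486). The part of these cell types in the levels above was not tested. Each mouse gave between 15413385 and 23590149 reads on genes.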

How the data were processed

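RNA was taken from whole hippocampi of 16 female mice. Per the labels and the study's methods, libraries were made with the KAPA mRNA HyperPrep kit and sequenced single-end, and the authors trimmed reads with Trimmomatic, aligned them to GRCm38 with STAR and deposited raw gene counts, which are not normalised. The adapters carried molecular identifiers, and whether these or the strand were used in counting is not given in the sources used here. The 4 summary lines of the table (24.0 to 27.8% of its reads) were left out of library sizes and tests. Genes were kept by filterByExpr (minimum count 10, minimum total 15), scaled by TMM and tested with edgeR 4.0.16 (R 4.3.3) by the quasi-likelihood test, on the 8 mice of each pair of groups or on all 16 mice for the averaged effects and the interaction. CPM used TMM library sizes over 16 mice. Calls used an unadjusted p of 0.01 or a Benjamini-Hochberg adjusted p of 0.05 over all 16475 genes tested. Log2 fold changes, standard errors and 95% intervals come from the same fits. Alternatives were RLE size factors, no filter, DESeq2 1.42.0, a replicate block, a read-composition covariate, 1 fit of all mice and leaving out mice. Groups came from the labels, which give each mouse as a separate sample. Same-numbered mice deviated together in every pair of WT-S and WT-D (r = 0.114, 0.205, 0.209 and 0.34), so that comparison was also fitted with the number as a block. Promoters and exon lengths came from RefSeq (GRCm38.p6) and a Gencode annotation of GRCm38. Relations across mice used 100000 permutations. The scripts were tested on simulated data. Members and gene lists were chosen with earlier results of these data known. Values per mouse are given for members at an unadjusted p of 0.01 in any comparison, then by p in the averaged genotype comparison up to 8 members, and up to 4 genes per other list are named by smallest p. Choices outside this rule were made after values were seen. Depth of 15413385 to 23590149 reads on genes sets the precision of each value, and p-values cover the spread between these mice. Not every allele of the 3xTg line and not every gene that passed is reported here.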

Additional observations from a re-analysis of the deposited data

Results flagged for a closer look

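In 16 of 128 groups of 4 mice (the 31 genes and the microglia score in each of 4 groups), 1 mouse stood apart from the other 3 by Dixon's criterion at 95%, where chance gives about 1 in 20. The mouse was WT-D mouse 1 for Ctsc (40.9 CPM), Ctsd (122 CPM), Ctsh (25.6 CPM), Ctss (282 CPM), Gusb (15.6 CPM) and Grn (69.9 CPM). It was 3xTg-D mouse 2 for Ctsd (161 CPM), Ctss (239 CPM), Gusb (16.9 CPM) and Scarb2 (275 CPM). These mice also had the highest microglia marker scores, and the part of microglia in these values was not tested. The other cases were Ctsa in WT-D mouse 2 (54.2 CPM), Ctsl in WT-S mouse 4 (73.3 CPM), Lipa in 3xTg-D mouse 4 (27.1 CPM), Gaa in 3xTg-D mouse 4 (245 CPM), Man2b1 in 3xTg-S mouse 2 (24.8 CPM) and Arsa in 3xTg-S mouse 3 (24.2 CPM).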

How the results depend on the processing

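No call turned its direction under any alternative. Members called between 3xTg-S and 3xTg-D, 0 in the report, were 2 with no filter on low counts and 5 with the replicate block (Ctsd, Ctss, Ctsz, Gusb and Gm2a, all lower, where 6.88% of all genes passed). Between 3xTg-S and WT-D, 1 in the report, they were 3 with no filter, 3 by DESeq2, 2 with the block (6.53% of all genes), 4 with the share of reads outside genes as a covariate, 2 with all 16 mice in 1 fit and, in a fit added after seeing the data, 2 without WT-D mouse 1 and 3xTg-D mouse 2 (4.07% of all genes). Between 3xTg-S and WT-S, 0 in the report, they were 2 with the block (8.13% of all genes), 1 with the covariate and 1 with all 16 mice. For CAY10566 averaged over genotypes, 0 in the report, they were 3 with no filter and 3 with the block (1.77% of all genes), and for the interaction 1 with the block (3.79% of all genes). The cause was not tested. For counts above that stand without a share of all genes, that share is not reported here. Those counts are not read as results about these genes. Leaving out each mouse in turn gave 2 to 2 members between 3xTg-D and WT-D, where 651 to 914 of all genes passed. Between 3xTg-S and 3xTg-D it gave 0 to 1 (1 without 3xTg-S mouse 3), where 68 to 802 of all genes passed. Between 3xTg-S and WT-D it gave 0 to 3 (664 to 1545 of all genes). Between 3xTg-S and WT-S it gave 0 to 2 (2 without 3xTg-S mouse 2), where 516 to 993 of all genes passed. For CAY10566 it gave 0 to 1 (86 to 196 of all genes) and for genotype 2 to 3 (1134 to 1360). For the interaction it gave 0 to 0 (56 to 487 of all genes), and for WT-S against WT-D 0 to 0 (22 to 516). At an unadjusted p of 0.01, Glb1 kept its vehicle and averaged genotype calls in every fit run. Of these, the fit without WT-D mouse 1 and 3xTg-D mouse 2 is no test of Glb1. It left out the highest WT-D and the lowest 3xTg-D value of that gene. Scarb2 kept its averaged call at that threshold in every fit, but not at an adjusted p of 0.05 without the 2 mice (adjusted p = 0.0617 by edgeR), and lost its vehicle call only with the covariate (log2 fold change 0.21, unadjusted p = 0.0122). In every comparison the labels give the mice only a number. For WT-S and WT-D same-number correlations ran from 0.114 to 0.34 (mean 0.217), and 7 of 8 mice correlated best with their own number. They ran from -0.096 to 0.185 for 3xTg-D and WT-D, 0.0158 to 0.391 for 3xTg-S and 3xTg-D, -0.101 to 0.496 for 3xTg-S and WT-S and 0.0616 to 0.257 for 3xTg-S and WT-D. There the means were 0.0414, 0.213, 0.241 and 0.176, and 3, 4, 6 and 7 of 8 mice correlated best with their own number. With the block, calls over all genes went from 809 to 944, from 149 to 1133, from 702 to 1339 and from 937 to 1075 in these comparisons, from 31 to 115 for WT-S against WT-D, from 1307 to 1727 for genotype, from 145 to 291 for CAY10566 and from 98 to 624 for the interaction.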
